A study of Mus musculus with 7 samples.

Results

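The granule neuron identity and maturation genes are 32 genes chosen by symbol for their known place in the cerebellar granule cell lineage, with receptor and channel genes left out of the choice. All 32 were found among the 24421 gene symbols of the count files, and all 32 were among the 16905 genes tested. They comprise 11 transcription factors of the lineage, 6 transcription factors of maturation, 4 secreted or vesicle-release genes, 9 genes of migration, adhesion and guidance, and 2 further markers. RNA from whole cerebellum of C57BL/6 mice was sequenced in 7 libraries. The 4 knockout libraries came from mice that carried En1-Cre and had both Cic alleles floxed. The 3 control libraries, titled wild type, came from mice with 1 floxed and 1 wild-type Cic allele and no Cre named in the genotype, so both groups carry a floxed allele, and Cre and the deletion cannot be told apart. En1 is expressed in the embryonic midbrain and anterior hindbrain, the region that forms the cerebellum, and cells in which Cre was never active keep Cic. Age, sex and litter are not in the labels.

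Granule neurons are the most numerous neurons of the cerebellum. Their progenitors leave the rhombic lip, divide in the external granule layer, and then migrate inward along Bergmann glia while their axons become the parallel fibres that contact Purkinje cells. NEUROD, PAX6, ZIC and BARHL transcription factors mark this lineage, NFI and MEF2 factors act as the neurons mature, and cerebellins released by parallel fibres hold their synapses on Purkinje cells. Cic encodes a transcriptional repressor that binds short octamer sequences and ATXN1. In bulk tissue, fewer cells of a type and less RNA per cell cannot be told apart.

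The libraries held 102653765 to 121285349 gene counts, and the lowest member count in any library was 93 (Meis2). Levels are given as CPM (counts scaled to library size with TMM factors), each with its SD over 4 knockout or 3 control libraries. Cic, the deleted gene, was at 144 to 147 CPM in knockout libraries, with the controls at 216 to 257 CPM, and it fell by 0.66 on the log2 scale (edgeR adjusted p = 0.00256; without knockouts 1 and 2, 0.0864). Knockout 3 and control 3 stood apart: the summed level of 8 choroid plexus markers was 12061 and 8312 CPM there, against 208 to 365 CPM in the other libraries. Knockouts 1 and 2 held 1556 and 1596 CPM of Xist, the RNA of the inactive X chromosome, and the other libraries 0.456 to 14.7 CPM.

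Most of these genes differed little between genotypes, within the precision of 4 against 3 libraries. Of the 32 members 1 was called, beside 2.08% of all genes tested. It was higher in the knockouts, a call made for 1.25% of all genes, and 0 members were called lower, beside 0.828% of all genes (edgeR quasi-likelihood test, Benjamini-Hochberg adjusted p below 0.05 over all genes). At an unadjusted p below 0.05 there were 2 higher and 3 lower members, and in all genes 8.06% were higher and 8.16% lower. DESeq2 called 1 higher and 3 lower, and limma-voom called 1 higher and 0 lower. The log2 fold changes had a median of -0.012, beside -0.0044 over all genes tested, with 13 positive and 19 negative values. The groups did not overlap for 5 members, 1 with every knockout above and 4 with every knockout below, beside 15.4% of all genes (7.06% above and 8.36% below). In edgeR the members' calls thus stood near the share in all genes. For 26 of the 32 members the 95% interval of the log2 fold change lay wholly within 0.5 of 0. The half-width of that interval was 0.19 at the median and ranged from 0.094 (Mef2a) to 1.82 (Meis2).

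**Figure D1:**
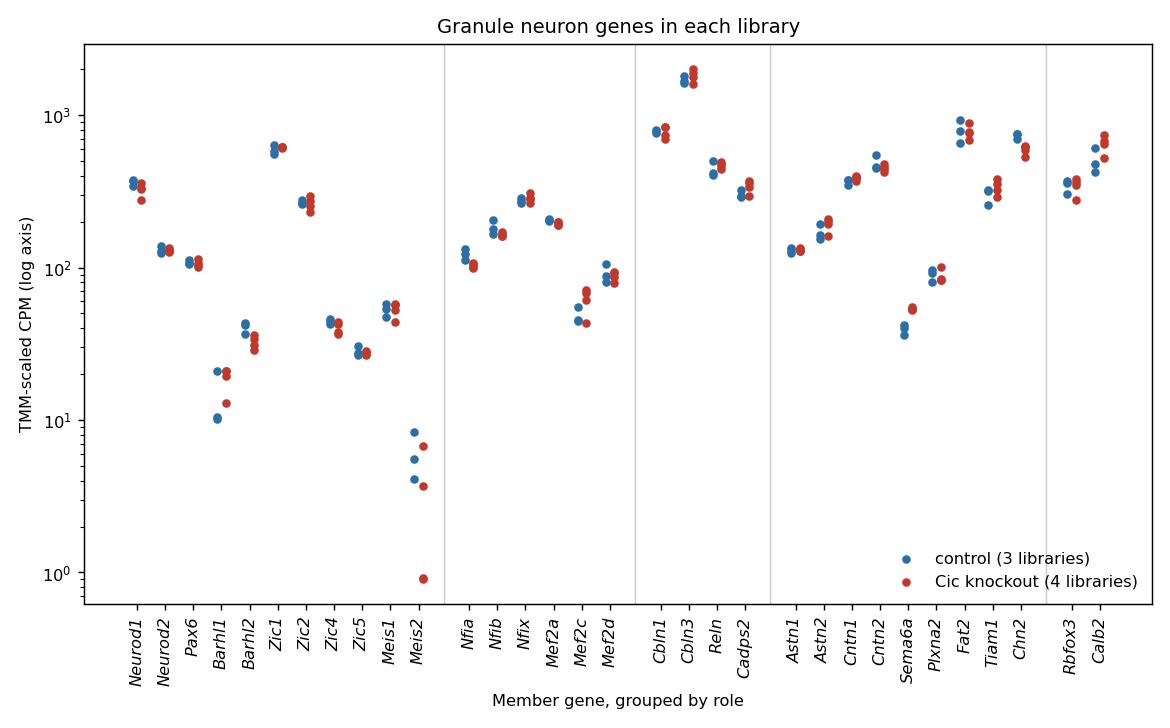
TMM-scaled CPM of each of the 32 granule neuron genes in the 3 control libraries (blue) and the 4 Cic knockout libraries (red), on a log axis and grouped by role. The groups lie close together for most genes, Sema6a is separated upward in the knockouts, and Meis2 spans 0.913 to 8.36 CPM.

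**Figure D2:**
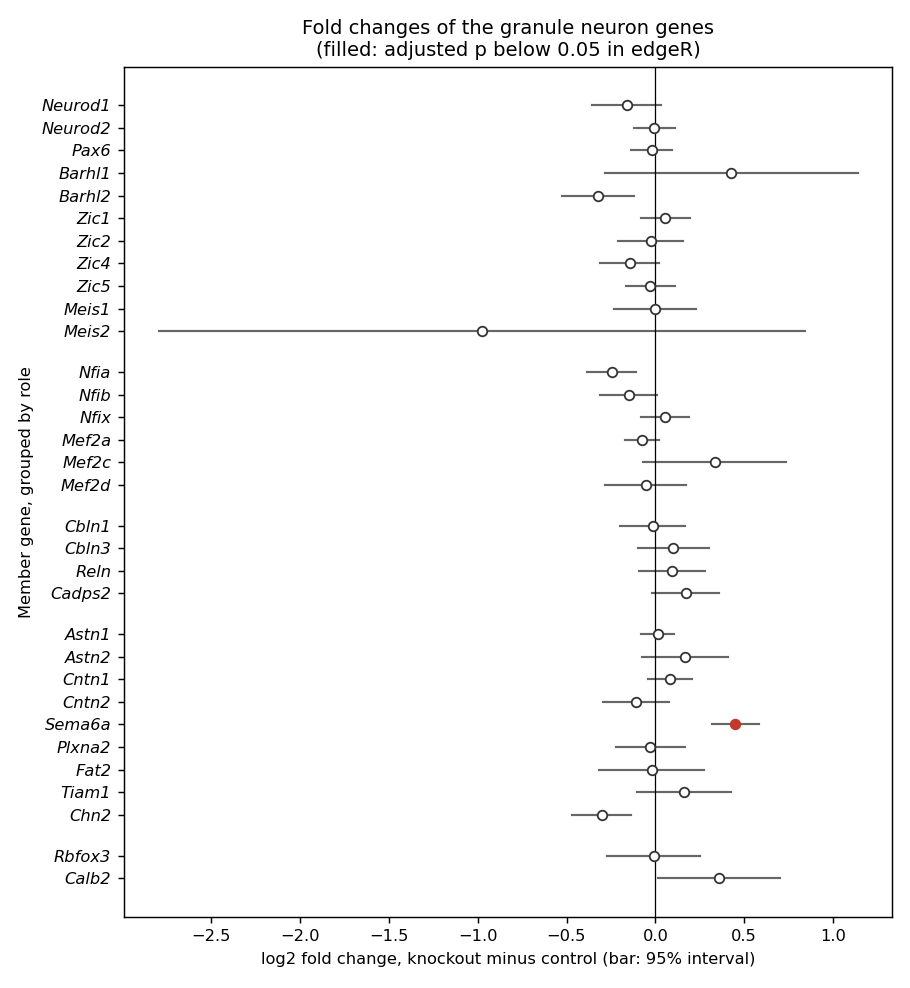
Log2 fold change of each member, knockout minus control, with its 95% interval; the filled point has an adjusted p below 0.05. Sema6a, at 0.45, is the one filled point, and Barhl1 and Meis2 have the widest intervals.

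Nfia, Barhl2 and Chn2 were each lower in every knockout than in every control and were called in at least 1 alternative fit, as given below. The 250 bases before a RefSeq transcription start of each are shown, chosen after their values were seen, as promoters that can be searched for sites of the lineage's own factors, in GRCm38.p6 coordinates, 5′ to 3′ on the gene's strand. Capitals mark the E boxes searched for, CAGATG or CAGCTG on either strand, which NEUROD proteins bind. Other forms of E box were not searched and are not marked.
Nfia, chr4:97581693-97581942, plus strand: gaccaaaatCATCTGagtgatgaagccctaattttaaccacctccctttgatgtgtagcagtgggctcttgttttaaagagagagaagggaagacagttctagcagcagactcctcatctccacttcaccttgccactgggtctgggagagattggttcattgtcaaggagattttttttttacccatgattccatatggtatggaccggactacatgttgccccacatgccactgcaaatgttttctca
Barhl2, chr5:106458167-106458416, minus strand: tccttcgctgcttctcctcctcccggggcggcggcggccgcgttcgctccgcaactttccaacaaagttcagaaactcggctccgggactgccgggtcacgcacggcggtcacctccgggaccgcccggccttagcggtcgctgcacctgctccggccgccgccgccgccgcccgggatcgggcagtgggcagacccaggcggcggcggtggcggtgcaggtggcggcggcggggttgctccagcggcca
Chn2, chr6:54264608-54264857, plus strand: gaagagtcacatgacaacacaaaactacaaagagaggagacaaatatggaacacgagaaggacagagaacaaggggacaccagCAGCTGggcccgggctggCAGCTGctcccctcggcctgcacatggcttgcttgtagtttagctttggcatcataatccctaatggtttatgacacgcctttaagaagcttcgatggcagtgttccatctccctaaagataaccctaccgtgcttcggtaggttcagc
The Nfia window holds 1 E box of the searched forms, the Barhl2 window 0 and the Chn2 window 2. The Nfia window lies upstream of the gene as listed in GENCODE M21, which starts at 97772734, so the 2 annotations differ there. Chn2 has 4 listed windows, and the others hold 0, 0 and 1, so the one shown has the most. It lies at a start inside the gene, which spans 54039554 to 54301810 in GENCODE M21. The window nearest the gene's first base, chr6:54039682-54039931, holds 0. Among the 27 members with a RefSeq promoter, 8 (29.6%) had a searched E box in these 250 bases of any listed start. The share was 28.2% of the 27025 genes in the table. The palindromic NFI consensus site, searched on both strands, was in 0 of the 27 members' promoters and in 0.0444% of all genes' promoters. Calb2, Cbln1, Nfib, Sema6a and Zic2 had no entry.

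CIC itself binds the octamers TGAATGAA and TGAATGGA. Searched on both strands from 250 bases before to 50 bases after each start, they were found for 1 of the 27 members, Barhl1, and for 2.85% of all genes in the table. The match, in capitals, lies at a start inside the Barhl1 gene, with its first base 21 bases from that start counted as 1, at chr2:28912457-28912486 on the minus strand of GRCm38.p6.
Barhl1: gccccgcacaaTGAATGAAactcaccgtaa
A match in letters is a description of the sequence and not a measured site.

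Among the lineage transcription factors, 0 of the 11 were called in edgeR with all libraries (0 higher and 1 lower at an unadjusted p below 0.05, with DESeq2 calling 1 lower, Barhl2, and limma-voom 0). Neurod1, a basic helix-loop-helix factor that granule neurons need to survive and differentiate, was at 328, 357, 278 and 334 CPM in knockouts 1 to 4, with the controls 1 to 3 at 369.7, 376 and 341 CPM. The ranges overlapped, and its log2 fold change was -0.16 (SE 0.0846, adjusted p = 0.398). Neurod2, a related factor of postmitotic neurons, averaged 129.8 ± 3.70 and 130.3 ± 7.66 CPM in the knockouts and controls. Pax6, a paired homeobox factor of the rhombic lip lineage, averaged 106 ± 5.29 and 108 ± 3.29 CPM. The 95% intervals of these 2 genes, -0.12 to 0.11 for Neurod2 and -0.13 to 0.09 for Pax6 on the log2 scale, were among the narrowest of the list.

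The 4 Zic genes, zinc finger factors that granule neurons keep expressing from progenitor to adult, form 2 divergent pairs in the genome. Zic1 and Zic4 lie on opposite strands of chromosome 9 with overlapping ends but no shared exon bases, and Zic5 and Zic2 lie 9757 bases apart on chromosome 14. Zic1 averaged 615 ± 4.39 CPM in knockout libraries, with the controls at 592 ± 39.3 CPM, and its partner Zic4 40.2 ± 3.51 and 44.4 ± 1.53 CPM. Their log2 fold changes had opposite signs, 0.06 and -0.14 (adjusted p = 0.703 and 0.376). Zic2 averaged 263 ± 27.1 and 268 ± 10.0 CPM and Zic5 27.7 ± 0.735 and 28.3 ± 2.16 CPM, with log2 fold changes of -0.03 for both.

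The 2 Barhl homeobox genes, which act downstream of ATOH1 in the lineage, did not share a pattern. Barhl2 was at 28.9, 30.9, 35.8 and 34.0 CPM in knockouts 1 to 4, with the controls 1 to 3 at 41.8, 36.4 and 43.3 CPM. Every knockout lay below every control, by a narrow margin between knockout 3 and control 2. The log2 fold change was -0.32 (SE 0.0893, unadjusted p = 0.00633), which missed the threshold (edgeR adjusted p = 0.124). It passed with the replicate number as a block (adjusted p = 0.0458), without knockout 3 (0.0457) and in DESeq2 (0.0268), within a range of 0.0268 to 0.675 over the alternatives. Barhl1 was at 21.0, 20.9, 13.0 and 19.6 CPM in knockout libraries, with the controls at 10.1, 20.9 and 10.5 CPM. Its low libraries were knockout 3 and controls 1 and 3, so control 2 was as high as the knockouts and the groups overlapped (log2 fold change 0.43, SE 0.301, adjusted p = 0.538).

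Meis1 and Meis2 encode homeodomain factors that pair with PBX proteins. Meis1 averaged 52.7 ± 6.06 CPM in knockout libraries, with the controls at 52.8 ± 4.94 CPM. Meis2 was at 0.916, 3.67, 6.74 and 0.913 CPM in knockouts 1 to 4, with the controls 1 to 3 at 5.58, 4.12 and 8.36 CPM. Knockouts 1 and 4 were the low libraries and the groups overlapped. The highest Meis2 library was 9.16 times the lowest, the widest ratio of any member, and its within-group SD was 1.17 on the log2 scale against a median of 0.12 over the members and over all genes. Its log2 fold change of -0.98 therefore had an SE of 0.756 (adjusted p = 0.582).

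Among the maturation factors, the NFI and MEF2 families were mixed, and 0 of 6 were called in edgeR with all libraries (0 higher and 1 lower at an unadjusted p below 0.05, with DESeq2 calling 1 lower, Nfia, and limma-voom 0). Nfia encodes an NFI factor that controls axon and dendrite growth of granule neurons and is also a factor of the astrocyte lineage. It was at 98.8, 105, 101 and 107 CPM in knockouts 1 to 4, with the controls 1 to 3 at 132, 112 and 122 CPM. No knockout reached the lowest control, and the log2 fold change was -0.25 (SE 0.0601, unadjusted p = 0.00307, edgeR adjusted p = 0.0846). Nfia passed without control 2 (adjusted p = 0.0305) and in DESeq2 (0.0119), within a range of 0.0119 to 0.644, and did not with the replicate block (0.0900). Its relative Nfib averaged 165 ± 4.25 and 183 ± 20.2 CPM, and Nfix 284 ± 17.1 and 274 ± 10.5 CPM in knockouts and controls.

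Astrocyte markers were measured beside Nfia. Of 10 Bergmann glia and astrocyte markers 2 were called lower and 0 higher, beside 0.828% and 1.25% of all genes. At an unadjusted p below 0.05 in edgeR, 7 were lower and 0 higher, beside 8.16% and 8.06% of all genes. Every knockout lay below every control for 7 markers, beside 8.36% of all genes, and above for 0. Among these markers 9 had values below 0, the lowest being Gfap (-0.82, edgeR adjusted p = 0.0964), and the median log2 fold change was -0.22. Their summed level was 3922 to 4432 CPM in knockout libraries, with the controls at 4897 to 5012 CPM, with 0 markers at a mean under 1 CPM. Gdf10, a Bergmann glia marker, fell from 232 ± 14.8 to 155 ± 5.77 CPM (adjusted p = 0.00256, and 0.0748 without both Xist-high knockouts), while Aqp4, a water channel of astrocyte endfeet, fell from 452 ± 36.1 to 339 ± 27.1 CPM (adjusted p = 0.0408). The Aqp4 call was lost without knockout 1 (adjusted p = 0.116), knockout 4 (0.123), control 1 (0.0706), control 2 (0.0657) or control 3 (0.164). It was also lost with the share of reads assigned to no feature (0.166) or Xist (0.110) as a covariate, without both libraries numbered 3 (0.0950) and without both Xist-high knockouts (0.236). The part of these markers in the Nfia value was not tested.

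The MEF2 factors respond to neuronal activity and calcium. Mef2a was at 197, 189, 191 and 198 CPM in knockout libraries, with the controls at 201, 204 and 208 CPM. Every knockout was below every control, yet the difference was small, at -0.08 on the log2 scale (SE 0.0410, adjusted p = 0.416). Mef2c was at 68.5, 61.0, 43.2 and 71.2 CPM in knockout libraries, with the controls at 44.6, 55.3 and 45.2 CPM. Knockout 3 was below every control while the other knockouts were above every control, and the 3 low libraries were the same as for Barhl1. The log2 fold change of Mef2c was 0.33 (SE 0.173, adjusted p = 0.399), and without knockout 3 it was 0.47 and passed (adjusted p = 0.0334), within a range of 0.0334 to 0.881. Mef2d averaged 88.1 ± 6.77 and 91.5 ± 13.1 CPM, and it shares 8.42% of its exon bases with an antisense transcript, from which its reads cannot be told apart without strand.

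Among the secreted and vesicle-release genes, 0 of 4 were called in edgeR, DESeq2 or limma-voom (0 at an unadjusted p below 0.05 in edgeR). Per kilobase of exon, Cbln3 (363 CPM per kb over all libraries), Calb2 (335) and Cbln1 (278) led the 32 members, and Meis2 was last at 0.996. Cbln1, a secreted organizer of synapses, was at 831, 743, 692 and 839 CPM in knockouts 1 to 4, with the controls 1 to 3 at 803, 783 and 765 CPM. Cbln3, a granule-specific partner that assembles with CBLN1, was at 1991, 1776, 1604 and 1895 CPM and at 1802, 1612 and 1667 CPM. Knockout 3 was the lowest knockout for both, and both ranges overlapped, with log2 fold changes of -0.01 for Cbln1 and 0.10 for Cbln3 (adjusted p = 0.954 and 0.618). Reln, the secreted glycoprotein that positions Purkinje cells, averaged 469.8 ± 20.3 and 440.0 ± 52.1 CPM. Cadps2, which promotes release of dense-core vesicles from parallel fibres, averaged 339 ± 32.7 and 301 ± 17.0 CPM (log2 fold change 0.17, adjusted p = 0.353).

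Partners of these secreted proteins were measured as a separate list. Of 10 genes 1 was called higher and 0 lower, beside 1.25% and 0.828% of all genes, with a median log2 fold change of -0.0078. The called gene was Lrp8, a reelin receptor also known as ApoER2. It was at 222, 216, 218 and 219 CPM in knockouts 1 to 4, with the controls 1 to 3 at 128, 147 and 136 CPM. All knockouts stood above all controls, and Lrp8 rose 1.60-fold (log2 fold change 0.68, SE 0.0535, edgeR adjusted p = 0.00135). It kept its call in 18 of 19 alternatives and missed it without both Xist-high knockouts (adjusted p = 0.0531), where the log2 fold change was 0.69. Its ligand gene Reln, by comparison, had a 95% interval of -0.09 to 0.28 on the log2 scale.

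Guidance and adhesion held the only called member. Sema6a encodes a transmembrane semaphorin on granule neurons that signals through plexin A2 and takes part in their switch from tangential to radial migration. It was at 52.8, 54.9, 53.7 and 53.3 CPM in knockouts 1 to 4, with the controls 1 to 3 at 36.0, 40.1 and 41.7 CPM. The 4 knockouts lay within a narrow band above every control. Sema6a rose 1.37-fold (log2 fold change 0.45, SE 0.0584, edgeR adjusted p = 0.00925), from a mean of 39.3 ± 2.93 to 53.7 ± 0.890 CPM. The gene spans chromosome 18 from 47235598 to 47368870 on the minus strand (GENCODE M21, GRCm38). Its call held when any single library was left out and with the replicate block (adjusted p = 0.00761). It was lost with the share of reads assigned to no feature as a covariate (adjusted p = 0.153, log2 fold change 0.41), a share of 18.2% to 19.0% in the knockouts and of 16.0%, 18.6% and 16.5% in controls 1 to 3. It was also lost without both Xist-high knockouts (adjusted p = 0.155, log2 fold change 0.46).

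Oligodendrocytes also express Sema6a, and their markers were read beside it. All 8 had a log2 fold change below 0 (median -0.31). Of these markers 1 was called lower and 0 higher, beside 0.828% and 1.25% of all genes. At an unadjusted p below 0.05 in edgeR, 4 were lower and 0 higher, beside 8.16% and 8.06% of all genes. Every knockout lay below every control for 2 markers, beside 8.36% of all genes, and above for 0. Their summed level ranged from 3684 to 5828 CPM in knockout libraries, with the controls at 4930 to 6207 CPM, with 0 markers at a mean under 1 CPM. Cldn11, a tight junction gene of myelin, fell from 89.4 ± 3.80 to 50.4 ± 8.96 CPM (adjusted p = 0.0213), a call lost without knockout 1 (0.0502), knockout 4 (0.0702), control 1 (0.0831) or control 3 (0.0929). Without both libraries numbered 3 the adjusted p of Cldn11 was 0.0731, and with the share of reads in no feature or Xist as a covariate it was 0.198 and 0.0568. The part of these markers in the Sema6a value was not tested.

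Plxna2, the plexin that receives SEMA6A, was at 83.4, 82.9, 100.3 and 84.0 CPM in knockout libraries, with the controls at 95.9, 80.6 and 91.7 CPM. Knockout 3 was the high library, and the log2 fold change was -0.03 (SE 0.0852, adjusted p = 0.905). Other semaphorin and plexin relatives are counted with the family relatives below.

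Chn2 encodes beta2-chimaerin, a Rac GTPase-activating protein that acts below semaphorin receptors. It was at 631, 592, 533 and 618 CPM in knockouts 1 to 4, with the controls 1 to 3 at 753, 750.4 and 692 CPM. No knockout reached the controls, and the log2 fold change was -0.30 (SE 0.0733, unadjusted p = 0.00296), but the adjusted p of 0.0833 missed the threshold. Chn2 passed with the replicate block (adjusted p = 0.0451), with a covariate for choroid plexus transcripts (0.00985), in DESeq2 (0.000992), without knockout 3 (0.0436) and without both libraries numbered 3 (0.0430), within a range of 0.000992 to 0.433. An antisense transcript at 3.12 and 2.46 CPM in knockouts and controls shares 11.7% of its exon bases. Tiam1, which activates Rac where chimaerins inactivate it, averaged 336 ± 39.8 and 300.1 ± 38.3 CPM (log2 fold change 0.16, adjusted p = 0.536).

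**Figure D3:**
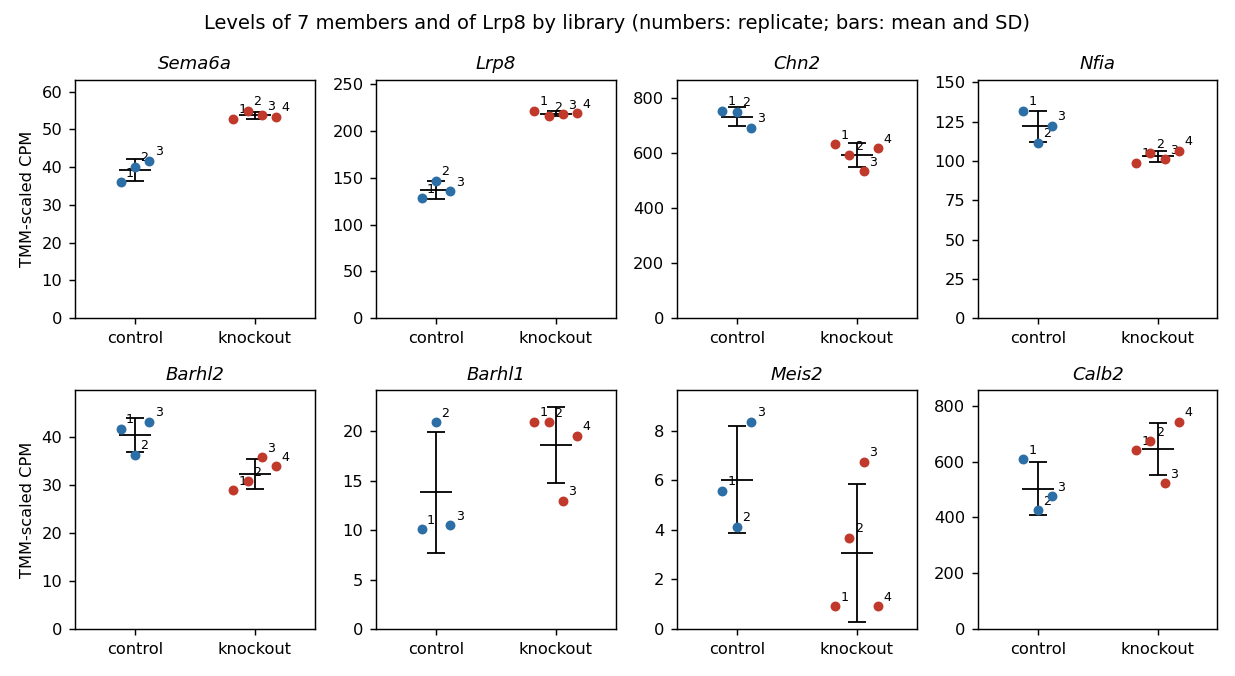
CPM by library for Sema6a, Chn2, Nfia, Barhl2, Barhl1, Meis2 and Calb2, and for the reelin receptor gene Lrp8, with replicate numbers, means and SD. Sema6a and Lrp8 are separated upward in the knockouts, Chn2, Nfia and Barhl2 are separated downward, and Barhl1, Meis2 and Calb2 overlap.

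The remaining adhesion genes overlapped between groups. Astn1 and its paralog Astn2 encode astrotactins, with which migrating granule neurons hold on to glial fibres. Astn1 averaged 131 ± 2.98 and 129 ± 4.34 CPM, with a 95% interval of -0.08 to 0.11 on the log2 scale, and Astn2 191 ± 20.6 and 170.4 ± 20.4 CPM. The contactins Cntn1 and Cntn2, cell adhesion molecules of parallel fibres and of young granule neurons, averaged 386 ± 13.1 and 364 ± 16.0 CPM and 449 ± 22.3 and 484 ± 53.8 CPM. Fat2, a protocadherin of granule axons, averaged 779 ± 84.0 and 791 ± 138 CPM.

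Of the 2 further markers, Rbfox3, which encodes the NeuN antigen and an RNA-binding splicing factor, averaged 342 ± 44.9 and 345 ± 34.8 CPM. Calb2, the gene of the calcium-binding protein calretinin, was at 641, 673, 523 and 744 CPM in knockout libraries, with the controls at 608, 426 and 476 CPM. Knockout 3 fell below control 1, and the log2 fold change of 0.36 had an unadjusted p of 0.0432 and an edgeR adjusted p of 0.289. Unipolar brush cells also express Calb2. Their 7 markers, of which Otx2 is also a choroid plexus marker, had a median log2 fold change of 0.017 and summed levels of 788 to 911 CPM in knockout libraries, with the controls at 744 to 916 CPM, with 0 called (1 higher at an unadjusted p below 0.05) and 0 with a mean over all libraries under 1 CPM, although Tbr1 and Lmx1a were under 1 CPM in some libraries. Their part in the Calb2 value was not tested.

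Library differences were shared by many members. The summed level of the 32 genes was 10413, 9946, 9099 and 10159 CPM in knockouts 1 to 4, with the controls 1 to 3 at 9928, 10001 and 9277 CPM. The libraries rich in choroid plexus transcripts, knockout 3 and control 3, were thus the lowest of their groups. Both were lowest for 10 members (31.2%), beside 16.8% of all genes tested, and these were Astn2, Cadps2, Cbln1, Chn2, Fat2, Meis1, Neurod1, Nfix, Rbfox3 and Tiam1. Without both libraries 1 member was called higher (Sema6a) and 1 lower (Chn2).

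**Figure D4:**
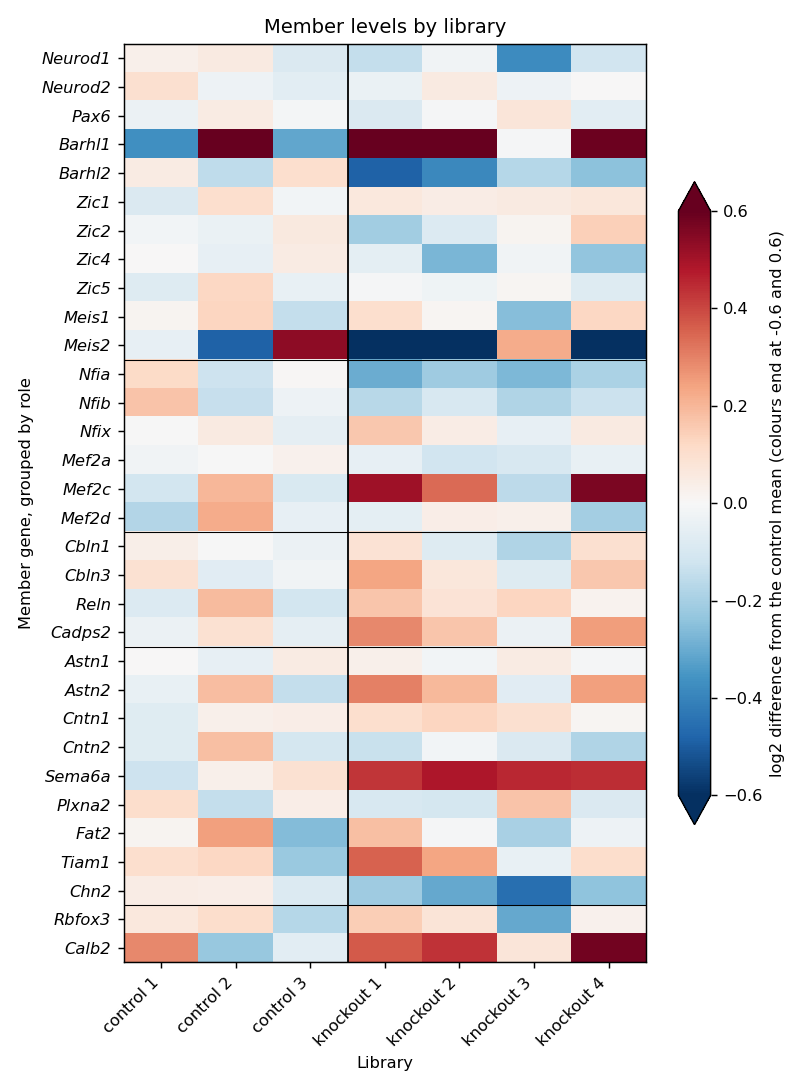
Log2 difference of each member from its control mean in every library, with the controls to the left of the line and the knockouts to the right. Sema6a is raised in all 4 knockouts, Chn2 and Nfia are lowered in all 4, and Barhl1 and Mef2c are lowest in knockout 3 and controls 1 and 3.

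Relatives and companions of the members were counted in the same way, beside 1.25% of all genes called higher and 0.828% called lower. Of 26 family relatives 24 were tested, with 1 called higher and 1 lower and a median log2 fold change of -0.024. Cntn6, a contactin of the granule cell layer, rose from 95.5 ± 2.00 to 123 ± 4.23 CPM (adjusted p = 0.00617). Neurod6, a factor mainly of forebrain neurons, fell from 10.8 ± 0.830 to 6.64 ± 0.310 CPM (adjusted p = 0.00796). Both calls were lost with the share of reads assigned to no feature as a covariate (adjusted p = 0.104 for Cntn6 and 0.115 for Neurod6) and without both Xist-high knockouts (0.0864 and 0.154), and no single omitted library ended either.

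Of 16 receptor and channel genes of mature granule neurons 0 were called higher and 1 lower, beside 1.25% and 0.828% of all genes. Their median log2 fold change was 0.015. Kcnk1, a two-pore potassium channel, fell from 243 ± 6.01 to 194 ± 2.88 CPM (adjusted p = 0.00826), a call just lost without knockout 1 (0.0502) or control 1 (0.0530), with the share of reads assigned to no feature as a covariate (0.117) and without both Xist-high knockouts (0.217). Among granule progenitor and proliferation genes, 0 of the 11 tested were called in edgeR (1 higher and 2 lower at an unadjusted p below 0.05), with a median of 0.053. The higher gene was Ccnd1, at 62.3 ± 18.2 and 27.3 ± 2.08 CPM in knockouts and controls, with every knockout above every control. Its log2 fold change was 1.19 (edgeR adjusted p = 0.0738). Knockout 3 held 35.5 CPM of Ccnd1, and the other knockouts 68.2 to 75.8 CPM. The lower genes were Gli1 (-0.38) and Pcna (-0.15), each with every knockout below every control. Atoh1, the defining factor of the progenitors, was at 0 to 0.0197 CPM in every library, under the level of 3 counts.

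**Figure D5:**
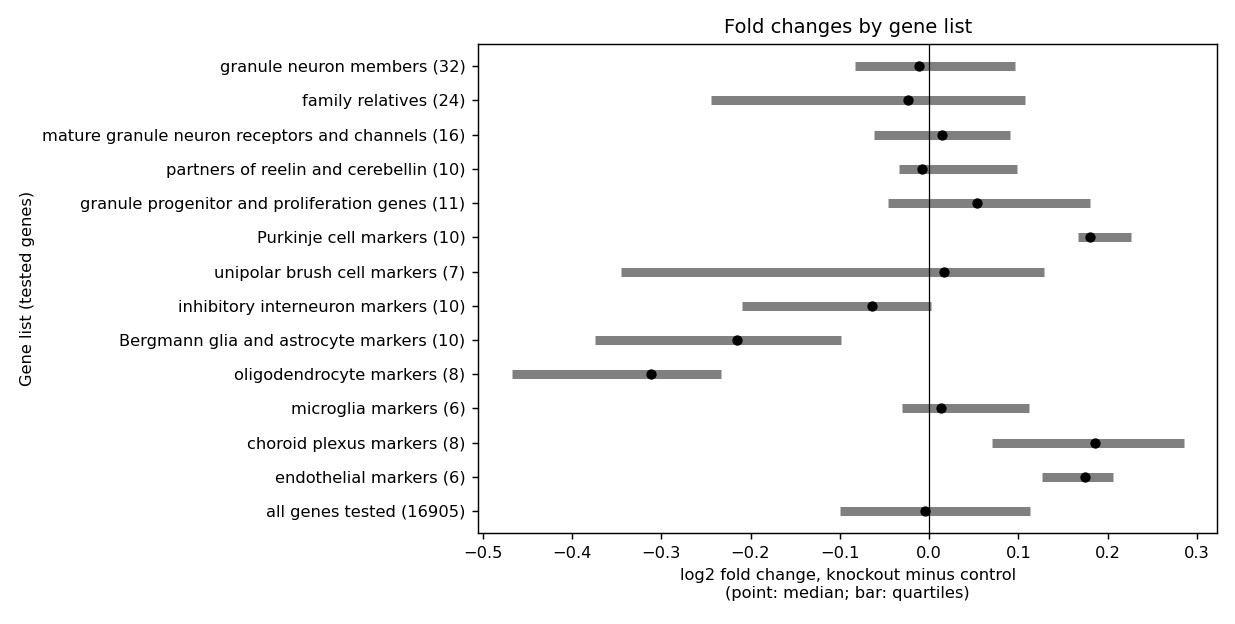
Median (point) and quartiles (bar) of log2 fold changes for the 32 members, for 4 companion lists and for markers of 8 other cell types, beside all genes tested. The members centre at -0.012 near all genes. The quartiles lie wholly below 0 for the Bergmann glia and astrocyte list and the oligodendrocyte list. They lie wholly above 0 for the Purkinje cell, choroid plexus and endothelial lists. The choroid plexus markers were highest in knockout 3 and control 3, and the SEs of their log2 fold changes ran from 0.949 (Clic6) to 2.81 (Ttr).

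Markers of the other cells of the tissue were read in the same fit, in which 1.25% of all genes were called higher and 0.828% lower. All 10 Purkinje cell markers had a log2 fold change above 0 (median 0.18), with 0 called in edgeR (1 higher at an unadjusted p below 0.05). Their summed level was 8114.7 to 11312.5 CPM in knockout libraries, with the controls at 8179.3 to 9653.8 CPM. The groups thus overlapped, and the sum in knockout 3 was below every control. Of 10 inhibitory interneuron markers 1 was called lower and 0 higher, with a median of -0.064. The called gene was Gad2, a GABA-synthesizing enzyme, at 174 ± 5.56 and 206 ± 7.44 CPM (adjusted p = 0.0369). Its call was lost with the replicate block (adjusted p = 0.0778) and without knockout 1 (0.0814), knockout 2 (0.117), knockout 4 (0.109), control 1 (0.0967) or control 3 (0.153). It was also lost with the share of reads assigned to no feature (0.248) or Xist (0.117) as a covariate, without both libraries numbered 3 (0.0976) and without both Xist-high knockouts (0.346). Gad1, also a GABA-synthesizing enzyme gene, averaged 838 ± 38.8 and 763 ± 19.2 CPM in knockouts and controls, with every knockout above every control. Its log2 fold change was 0.13 (unadjusted p = 0.0553, edgeR adjusted p = 0.322). At an unadjusted p below 0.05 in edgeR, 0 interneuron markers were higher and 3 lower, beside 8.06% and 8.16% of all genes. These 3 were Gad2, Npy (log2 fold change -0.78) and Sst (-0.76), and in each every knockout lay below every control. Separation upward was seen for 1 marker and downward for 3, beside 7.06% and 8.36% of all genes. Of the 10 interneuron markers 4 had values above 0 and 6 below. In edgeR 0 markers were called for microglia (median 0.013, 0 at an unadjusted p below 0.05), choroid plexus (0.19, 0) and endothelium (0.17, 1 higher).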

How the data were processed

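Counts per gene symbol were deposited by the authors as raw counts, with 1 file per library. The submitters' processing notes name STAR 2.5.3a, HTSeq, DESeq2 and build mm10. Annotation, strand setting and filters are unstated in the sources used here. Per the labels' protocols, cDNA was amplified from total RNA primed at poly(A) and at random. The 5 HTSeq summary rows stayed out, of which reads in no feature made up 16.0% to 19.0% of entries.

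Genes were filtered with filterByExpr, scaled by TMM and compared with the robust quasi-likelihood test in edgeR 4.0.16 (R 4.3.3), genotype being the only term. Adjusted p-values are Benjamini-Hochberg over all 16905 genes and come from this test unless another is named. SE is the log2 fold change over the root of F, and intervals are 95%. Alternatives used limma 3.58.1 and DESeq2 1.42.0. On simulated counts with 200 genes changed 2-fold, drawn from genes at a mean of at least 1 CPM, 86.5% were recovered with 11 false calls. Smaller changes, such as the 1.37-fold rise of Sema6a, were not simulated, so their recovery is not known. The labels do not say that libraries are separate animals; if they were not, p-values would measure technical spread. Within-group pairs differed by 18.5 to 157 times sampling variance. The depth makes 3 counts 0.0247 to 0.0292 CPM, which covers counting error only.

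Exon lengths come from GENCODE M21 and promoters from RefSeq on GRCm38.p6, the assembly called mm10. The members and lists were chosen with earlier results of these data known. Named genes are Cic, the members, up to 4 called genes of each list, and some uncalled genes of the lists.

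Same-numbered libraries deviated together from their group means across genes (correlations 0.145, 0.288 and 0.713), all over the limit of 0.1, though differently numbered libraries could exceed it, as did knockout 1 and control 2 (0.319). The pairing comes from these correlations and not from the labels. The block fit rests on numbers 1 to 3, because knockout 4 has no partner.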

Additional observations from a re-analysis of the deposited data

Results flagged for a closer look

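Plxna2 in knockout 3, at 100.3 CPM, stood apart from the other knockouts, which lay at 82.9 to 84.0 CPM. The summed choroid plexus markers in knockout 3, at 12061 CPM, stood apart from 208 to 308 CPM in the other knockouts. In both cases the gap between the highest library and the next exceeded the 95% critical value of Dixon's test for 4 samples (0.829). These are 2 of the 54 genes and sums examined in this way among the knockouts, and chance alone marks about 1 in 20.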

How the results depend on the processing

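Each result was recomputed under 19 alternatives; the last named below, Xist as a covariate and the omission of both Xist-high knockouts, were chosen after seeing the data. Sema6a stayed higher in all 19. Of the 32 members, 17 kept their sign throughout, and 27 were called in no fit. The replicate block changed the calls of Barhl2 and Chn2, which gave 2 lower members, and of Gad2, and no other call among the named genes, and it gave 310 higher and 204 lower genes in all. DESeq2 gave 3 lower members and 678 higher and 502 lower genes. The share of reads in no feature left 0 higher members and 46 and 12 genes. The choroid plexus score gave 1 lower member and 378 and 314 genes. Omitting both libraries numbered 3 gave 1 lower member. Xist as a covariate left 73 and 31 genes, and omitting both Xist-high knockouts 0 higher members and 16 and 2 genes. Leaving out single libraries gave 1 to 2 higher and 0 to 2 lower members, and 65 to 493 higher and 21 to 349 lower genes. The higher end came without knockout 3 (493 and 349), followed by control 2 (371 and 205), and the lower end without knockout 1 (65 and 21), while omitting knockout 2, knockout 4, control 1 or control 3 left 77 to 99 higher and 24 to 57 lower. The causes were not tested.

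Signs turned for 15 members, none of them called. With the share of reads in no feature the values were 0.041 for Neurod2, -0.016 for Barhl1, -0.043 for Zic1, 0.0055 for Nfib, 0.014 for Cbln1, -0.060 for Reln and 0.073 for Plxna2. With RLE size factors, DESeq2, the filter at a mean of 1 CPM and omission of both libraries numbered 3, Meis1 had 0.0032, 0.0032, 0.0059 and 0.0062. That filter gave 0.0024 for Neurod2, the replicate block 0.0032 for Mef2d, and omission of both libraries numbered 3 gave 0.019 for Cbln1. Xist as a covariate gave 0.025 for Zic2 and 0.0057 for Plxna2, and omitting both Xist-high knockouts 0.017 for Pax6, 0.093 for Zic2 and 0.057 for Plxna2. Over single omissions the values ranged from -0.037 to 0.050 for Neurod2, -0.054 to 0.0031 for Pax6, -0.087 to 0.028 for Zic2, -0.060 to 0.037 for Zic5, -0.071 to 0.075 for Meis1, -0.13 to 0.064 for Mef2d, -0.053 to 0.037 for Cbln1, -0.011 to 0.037 for Astn1, -0.10 to 0.031 for Plxna2, -0.14 to 0.11 for Fat2 and -0.091 to 0.078 for Rbfox3. Counts of 3 per library set the floor of detection, and all 32 members lay far above it.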
